A study of Mus musculus with 6 samples.

Results

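Oligodendrocyte precursor cells (OPC) were examined in single-cell suspensions of mouse cerebral cortex and hippocampus, prepared by a method aimed at microglia and vascular cells. A barcode was taken as an OPC when it had 250 to 6000 genes, under 25% mitochondrial UMIs (unique molecular identifiers, 1 per captured transcript), and a UMI of Pdgfra, of Olig1, and of Sox10 or Olig2. It could also hold at most 1 UMI in sum from the mature myelin genes Mog, Mag and Opalin, and at most 1 detected gene among P2ry12, Cx3cr1, Cldn5, Flt1, Aqp4 and Col1a1, which mark other cell types. The cells were thus chosen by measured UMIs of these genes, whose levels are not findings here. This rule found 79 OPC among 27530 barcodes that passed the gene and mitochondrial limits, of 33273 deposited. The cortical libraries came from female C57Bl/6J mice aged 3 weeks (prep 1) and the hippocampal libraries from female C57Bl/6J mice aged 5 weeks (prep 3) with no treatment or altered genotype in the labels. In each preparation the cells of 3 mice were pooled into 1 suspension and run as 3 technical replicates, so each preparation was 1 biological sample and no test between them was possible. Region, age and preparation changed together and cannot be told apart.

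OPC are the dividing glial cells from which oligodendrocytes form. They carry the PDGF receptor alpha chain and the proteoglycan NG2, encoded by Cspg4, receive synaptic input through glutamate receptors, and lose these features as they pass through a committed precursor stage and then make myelin. Attached white matter was scraped off at dissection as far as could be done, and myelin debris was depleted on a Percoll gradient; the effect of these steps on which cells were recovered was not tested.

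The deposited libraries held 39662203, 41522304 and 42097490 UMIs in cortical replicates 1, 2 and 3, and 50024850, 47800210 and 43963706 UMIs in hippocampal replicates 1, 2 and 3. OPC numbered 0, 2 and 4 in the cortical and 12, 34 and 27 in the hippocampal libraries. They were 0.0450% of kept cells in cortex (exact Clopper-Pearson 95% interval 0.0165 to 0.0980) and 0.514% in hippocampus (0.403 to 0.645), where the libraries gave 0.250%, 0.704% and 0.590% (SD 0.236). All 3 hippocampal shares lay above the 3 cortical ones, and cortical replicate 1, with 0 of 4351 cells, allows a share of up to 0.0689% by the floor of 3 counts and 0.0847% by the exact interval. The hippocampal share was 11.4 times the cortical share, with a counting interval from 4.99 to 32.1. Without cortical replicate 3, the cortical share rests on 2 OPC. The SD over the cortical libraries was 0.0457%, about the size of the cortical share. These intervals cover counting error only, not differences between mice.

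**Figure D1:**
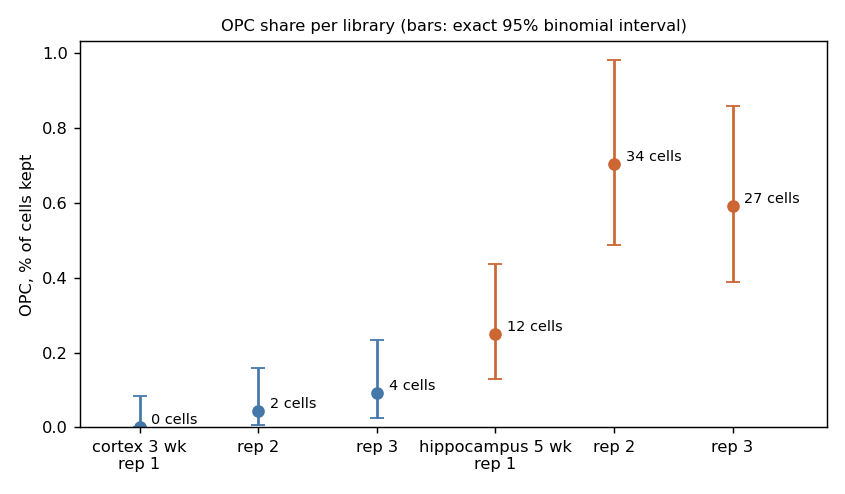
Share of kept cells called OPC in each library, in percent (y axis), for the 3 cortical libraries (blue) and the 3 hippocampal libraries (orange); bars are exact 95% binomial intervals and labels give the number of OPC. The hippocampal libraries lie at 0.250%, 0.704% and 0.590%, above the cortical ones at 0%, 0.0436% and 0.0913%.

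The ratio of OPC to other cells depended on the denominator. There were 6.78 OPC per 100 mature oligodendrocytes in hippocampus (73 and 1076 cells) and 16.7 in cortex (6 and 36 cells). By replicate the values were 3.25, 9.88 and 7.44 in hippocampus and 0, 18.2 and 40 in cortex, so the libraries of the regions overlapped. The cortical value was 28.6 without replicate 1 and 7.69 without replicate 3 (2 and 26 cells). The hippocampus to cortex ratio of these values was 0.407, with an interval from 0.178 to 1.15 that spans 1. Against 1000 astrocytes the values were 61.9 in hippocampus (29.9, 97.4 and 62.8 by replicate) and 3.16 in cortex (0, 3.13 and 6.29), or 1.58 without cortical replicate 3. The order of the regions was the same when the rule was applied after thinning every cell to 2000 UMIs, with 0.504% in hippocampus (63 of 12489) and 0.0409% in cortex (5 of 12233). Hippocampal OPC had a median of 9555 UMIs (566 to 26512) and 3902 genes, and cortical OPC a median of 7416 UMIs (4713 to 14340). No OPC shared its barcode with another library of its preparation, and Scrublet called 1 hippocampal and 1 cortical OPC a doublet.

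Pdgfra alone did not single out these cells. Of 297 kept barcodes with a Pdgfra UMI, 194 lacked Olig1, and 117 of those had a UMI of Col1a1, Col1a2 or Dcn, genes of fibroblasts, which also carry Pdgfra. Sox10 or Olig2 left 97 of the remaining 103, the limit on mature genes 91, and the limit on other cell types 79. Among OPC, 49 had 0 and 30 had 1 of the 6 genes of other types. The 12 barcodes just outside, with 2 or more, all had Cspg4. The 6 barcodes just beyond the mature limit differed in content, with Cspg4 in 0 of 6.

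Cspg4, which the rule did not use, had a UMI in 65 of 73 hippocampal OPC (89.0%) and in 6 of 6 cortical OPC. In hippocampal microglia, which should lack it, the share was 0.633%, at median depths of 9555 UMIs for OPC and 6642.5 for microglia. Thinned to 2000 UMIs, the shares were 70.0% and 0.146%. Of the 70 members with 2 or more Pdgfra UMIs, 69 had Cspg4 (98.6%), whereas it was found in 2 of the 9 members with 1 Pdgfra UMI.

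OPC of prep 3 were described against 1076 mature oligodendrocytes of the same libraries, cells with at least 2 of Mog, Mag and Opalin and no Pdgfra. Prep 1 had 36 such cells, fewer than the 50 set as a minimum, and was left out. UMIs were summed per class, and ratios carry exact binomial intervals for counting error. Since the rule contrasts these classes, the values are a description with no test. Of 4811 genes with at least 50 CPM (counts per 1000000 UMIs) in either class, 1569 (32.6%) were at least 2-fold higher in OPC and 658 (13.7%) at least 2-fold lower. The median gene stood at a log2 ratio of 0.56, and with ratios centred on it the counts were 951 and 1018. The ratios below are to be read against that shift. A gene that reached 50 CPM in OPC alone could only be higher there, as 1739 of the 4811 did, so the number of such genes is given beside the lists and their counts are not read as support.

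The 12 genes highest in OPC over mature cells by the naming rule were Sapcd2, Spry4, Cdo1, Tmem255b, Cacng4, Rlbp1, Pianp, Tmem179, Tenm1, C1ql2, Plpp4 and Angptl1. Cacng4, an auxiliary subunit of AMPA-type glutamate receptors, was at 966, 646 and 513 CPM in OPC of replicates 1, 2 and 3 and at 1.54, 1.08 and 0.132 CPM in mature cells. Its log2 ratio was 9.43 (8.80 to 10.13). Sapcd2 was at 84.0, 180 and 114 CPM in OPC and between 0.129 and 0.135 CPM in mature cells, a log2 ratio of 10.08 (8.49 to 12.38). Spry4, a feedback inhibitor of receptor tyrosine kinase signalling, was at 179, 109 and 107 CPM, against 0.132 CPM in the pooled mature cells. Tenm1, which encodes a teneurin adhesion protein, was at 116, 106 and 41.3 CPM, while 0 UMIs were counted in mature cells. Against the floor of 3 counts over that class, Tenm1 was at least 626-fold higher in OPC. The libraries of the classes did not overlap in these 4 genes. They were picked for high ratios with all 3 replicates on 1 side, so this follows largely from the choice and is not support.

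The 12 genes lowest in OPC were Mal, Ermn, Trf, Ppp1r14a, Apod, Ptgds, Mobp, Car2, Gpr37, Aspa, Ndrg1 and Nkx6-2. Mal, a proteolipid of compact myelin, was at 21.0, 16.4 and 10.3 CPM in OPC and at 10997 CPM in pooled mature cells, a log2 ratio of -9.55 (-10.56 to -8.72). Mobp, a basic protein of myelin, was at 42.0, 10.9 and 3.44 CPM against 2797 CPM. Aspa, which cleaves N-acetylaspartate, had 1 UMI in all OPC, or 1.33 CPM, against 783 CPM. Ppp1r14a, Ndrg1 and Nkx6-2 had 0 UMIs in hippocampal OPC. Mal was at 302 CPM in microglia and 510 CPM in endothelial cells of the same libraries, above its level in OPC.

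The genes that stood highest in OPC over the highest of mature oligodendrocytes, astrocytes, microglia and endothelial cells were Nxph1, Tmem179, C1ql2, Elfn1, Scn1a, C1ql1, Plppr1, Myt1, Neto1, Sntg1, Dpp10 and Tenm1. Nxph1, a secreted glycoprotein, was at 557, 466 and 327 CPM in OPC of replicates 1, 2 and 3 and at 1.67 CPM in mature cells, the highest of those 4 classes, 254-fold lower. C1ql1, a secreted protein of the complement C1q family, was at 903, 938 and 792 CPM and 188-fold over the highest of them. Committed precursors, which were not part of that ranking, held 97.8 CPM of Nxph1 and 486 CPM of C1ql1. Scn1a, a voltage-gated sodium channel, was at 105, 68.2 and 44.8 CPM in OPC and at no more than 0.206 CPM in the 4 classes.

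Promoter sequences are shown for 1 gene of each of these 3 groups, to give the DNA upstream of genes with opposite patterns in this lineage. Each is the first gene of its group with a single RefSeq entry (GRCm38.p6) that held either motif searched. Genes on 1 chromosome were passed over in this choice. Each sequence covers 250 bases before and 50 after the gene's start. The motifs, searched on both strands, were ACAAT (reverse ATTGT), the core recognised by SOX factors, and the palindrome CAGCTG, an E-box of the kind that basic helix-loop-helix factors such as Olig2 recognise; they do not overlap. Capitals mark the matches. In each of the 3 groups, 9 of the 12 genes had an entry.
Tenm1, chrX:43274735-43275034, minus strand, higher in OPC than in mature cells: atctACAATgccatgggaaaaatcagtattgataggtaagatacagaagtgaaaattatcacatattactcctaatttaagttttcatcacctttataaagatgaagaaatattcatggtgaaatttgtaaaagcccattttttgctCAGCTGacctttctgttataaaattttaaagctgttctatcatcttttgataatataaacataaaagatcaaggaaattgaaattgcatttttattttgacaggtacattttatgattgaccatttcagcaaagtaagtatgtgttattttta
Ermn, chr2:58052815-58053114, minus strand, lower in OPC than in mature cells: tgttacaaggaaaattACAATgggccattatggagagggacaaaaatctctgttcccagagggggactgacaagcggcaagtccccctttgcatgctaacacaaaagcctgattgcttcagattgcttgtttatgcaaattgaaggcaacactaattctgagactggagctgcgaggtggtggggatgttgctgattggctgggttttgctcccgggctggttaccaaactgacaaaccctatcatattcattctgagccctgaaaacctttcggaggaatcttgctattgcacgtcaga
Elfn1, chr5:139907616-139907915, plus strand, highest in OPC among the classes: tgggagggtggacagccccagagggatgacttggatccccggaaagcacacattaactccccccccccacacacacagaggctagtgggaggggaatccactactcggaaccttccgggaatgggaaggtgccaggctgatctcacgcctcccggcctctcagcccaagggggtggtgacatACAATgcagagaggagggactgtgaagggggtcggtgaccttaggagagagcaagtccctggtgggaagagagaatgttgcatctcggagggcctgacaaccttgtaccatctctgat
ACAAT was in 1 of 11 promoters of the first group, 3 of 9 of the second and 3 of 11 of the last, and in 31.0% of all 32851 promoters. CAGCTG was in 3 of 11, 3 of 9 and 1 of 11, and in 16.3% of all. A match describes these letters only and is not evidence of binding.

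Of 28 OPC identity genes listed, 26 had 50 CPM and all 26 were at least 2-fold higher in OPC than in mature cells, with a median log2 ratio of 6.70 against 0.56 over all genes compared; 22 of them reached 50 CPM in OPC alone. This list was drawn up from genes known in OPC, so its direction is not independent of the label. Ptprz1, a receptor phosphatase that is also a proteoglycan, was the most abundant over the pooled replicates, at 3875, 4167 and 3040 CPM in replicates 1, 2 and 3. Cspg5, which encodes the proteoglycan neuroglycan C, was at 4295, 3384 and 2438 CPM, and Cspg4 itself at 725, 554 and 396 CPM. In pooled mature cells the levels were 33.7 CPM for Ptprz1, 27.9 CPM for Cspg5 and 1.62 CPM for Cspg4. Astrocytes also held 1714 CPM of Ptprz1 and 1932 CPM of Cspg5, but 4.75 CPM of Cspg4. Lhfpl3, at 960 CPM in OPC, was at 0.772 CPM in astrocytes and 9.70 CPM in mature cells.

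**Figure D2:**
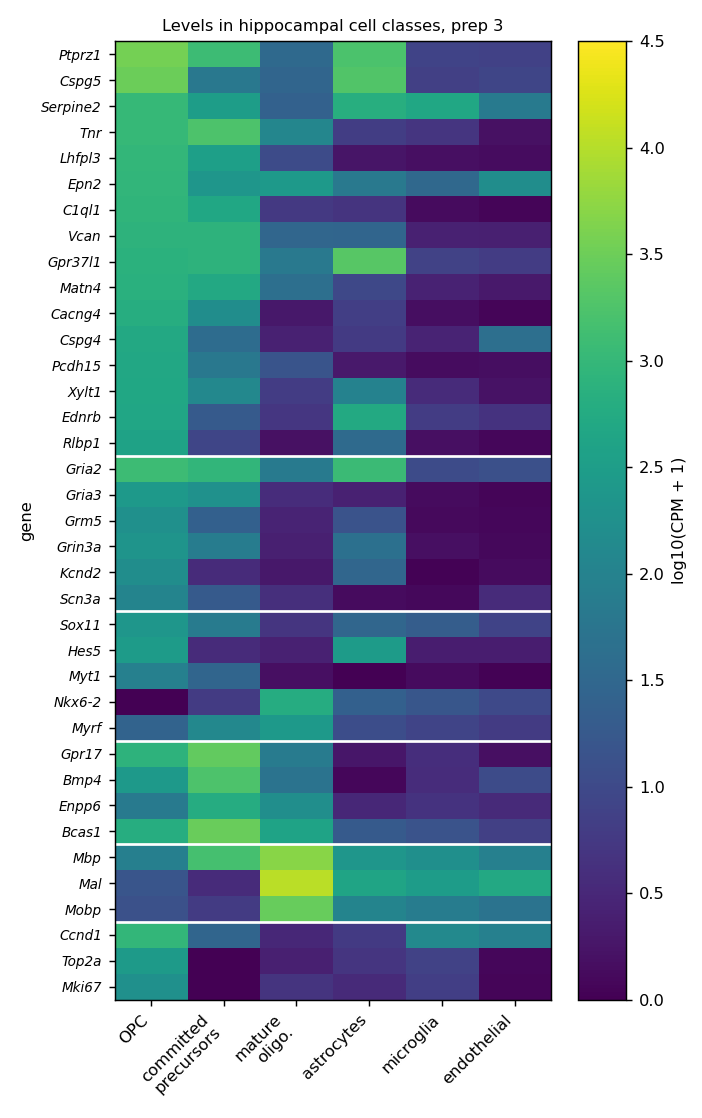
Level of selected genes (rows) in the hippocampal cell classes of prep 3 (columns) as log10(CPM + 1), from dark (low) to yellow (high); white lines separate the 16 most abundant OPC identity genes, transmitter receptors and channels, transcription factors, committed precursor genes, myelin genes and cell cycle genes. Cspg4, Cacng4 and Ccnd1 are high in OPC and low in mature oligodendrocytes, where Mal is high.

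Among genes of neurotransmitter receptors and ion channels, 18 of 22 compared were at least 2-fold higher in OPC than in mature cells and 2 lower. Their median log2 ratio of 5.13 rests on 17 genes that reached 50 CPM in OPC alone. Of the other 5, 1 was higher and 2 were lower, with a median of -0.60. Gria2, the AMPA receptor subunit that limits calcium entry, was at 1124, 1366 and 1109 CPM in replicates 1, 2 and 3 and at 71.9 CPM in mature cells (log2 ratio 4.10, 3.99 to 4.22). Gria3 was at 271 CPM and Gria4 at 156 CPM, against 2.77 and 38.5 CPM in mature cells. The metabotropic glutamate receptor gene Grm5 was at 200, 196 and 162 CPM, against 1.84 CPM. Kcnd2 and Kcnd3, which encode A-type potassium channels, were at 161 and 66.5 CPM in OPC and at 0.922 and 0.263 CPM in mature cells. The genes lower in OPC were Grm3 (3.99 against 78.4 CPM) and Kcna6 (35.9 against 86.7 CPM). Kcnj10, an inward rectifier of glia, was at 141 CPM in OPC, 213 CPM in mature cells and 163 CPM in astrocytes.

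Growth factor receptors were divided, with 7 of 15 higher, 3 lower and a median log2 ratio of 0.74, close to that of all genes compared. Of the 15, 8 reached 50 CPM in OPC alone. The other 7 were 1 higher and 3 lower, with a median of -0.57, against 0.04 over all genes that reached 50 CPM in mature cells. Ntrk3, the receptor of neurotrophin-3, was at 242, 183 and 89.5 CPM in replicates 1, 2 and 3 and at 0.527 CPM in mature cells. Ntrk2 was at 340 against 19.3 CPM and Notch1 at 142 against 18.1 CPM. Lpar1, a lysophosphatidic acid receptor, had 0 UMIs in OPC and 584 CPM in mature cells, and Fgfr2 was at 1.33 against 237 CPM. Erbb3 was also lower in OPC (26.6 against 105 CPM). Of the secreted factors, 8 of 11 were higher and 3 lower (median 3.19), and 6 reached 50 CPM in OPC alone. The other 5 were 2 higher and 3 lower, with a median of -1.86. Among the 11 were Vegfa, an angiogenic factor (173 against 18.9 CPM), and Pdgfa, a ligand of the PDGF receptor. Pdgfa was lower in OPC (55.8 against 203 CPM).

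Proteoglycans and other matrix genes were higher in 16 of 18 cases and lower in 1 (median log2 ratio 4.10), and 14 of the 18 reached 50 CPM in OPC alone. Sdc3, which encodes the heparan sulphate proteoglycan syndecan-3, was at 630, 554 and 289 CPM in replicates 1, 2 and 3 and at 1.45 CPM in mature cells. Vcan (versican) was at 797 against 29.0 CPM, and Bcan (brevican) at 884 against 124 CPM. The single gene lower in OPC was Hapln2, a link protein of nodes of Ranvier (3.99 against 186 CPM). This median ranged from 3.41 to 5.81 over the alternatives tried. Synaptic adhesion genes were higher in 24 of 29 cases and lower in 0 (median 2.90; 17 reached 50 CPM in OPC alone), with Cntn1 (contactin-1) at 990 CPM in OPC. Guidance genes were divided, 7 of 15 higher and 6 lower (median -0.20; 5 reached 50 CPM in OPC alone). Ntn1 (netrin-1) was at 54.5 against 0.132 CPM and Epha5 at 213 against 5.84 CPM, whereas the netrin receptor gene Unc5b was at 1.33 against 228 CPM and Efnb3 at 21.3 against 519 CPM.

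Among transcription factors of the lineage not used in the rule, 17 of 31 were higher in OPC than in mature cells and 4 lower (median log2 ratio 1.30); 13 of the 31 reached 50 CPM in OPC alone. Hes5, a Notch target that represses differentiation, was at 431, 319 and 207 CPM in replicates 1, 2 and 3 and at 1.58 CPM in mature cells. Sox6 was at 363 against 14.7 CPM, Sox11 at 231 against 3.95 CPM, Id2 at 272 against 6.81 CPM, and the ETS factor Etv4 at 74.4 against 0.220 CPM. The 4 factors lower in OPC were Nkx6-2, Myrf, St18 and Zfp536. Myrf, which drives myelin genes, was at 26.6 CPM in OPC, 124 CPM in committed precursors and 276 CPM in mature cells. Nkx2-2, which acts at the onset of differentiation, was at 110 CPM in OPC, 443 CPM in committed precursors and 43.2 CPM in mature cells.

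**Figure D3:**
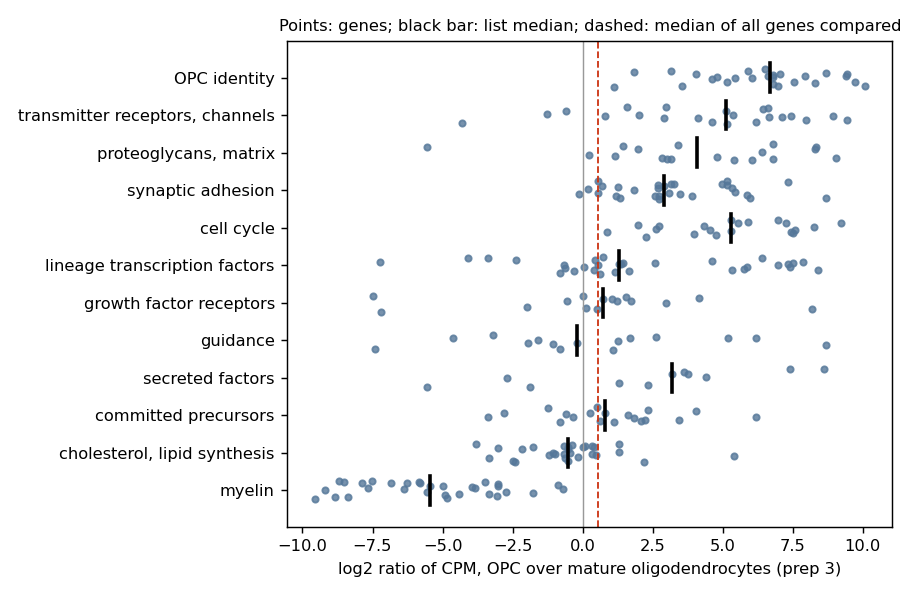
Log2 ratio of CPM in OPC over mature oligodendrocytes of prep 3 (x axis) for the genes of 12 lists (y axis) with at least 50 CPM in either class; points are genes, black bars list medians, and the dashed line the median of all 4811 genes compared (0.56). OPC identity genes centre on 6.70 and the 31 myelin genes not used in the rule on -5.44.

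Of 31 myelin genes not used in the rule, 0 were higher and 29 lower in OPC than in mature cells, with a median log2 ratio of -5.44; 17 of them reached 50 CPM in mature cells alone. The summed level of the list was 2195, 2907 and 4510 CPM in OPC of hippocampal replicates 1, 2 and 3, and 5718, 3083 and 4960 CPM in their microglia, which make no myelin. In cortex it was 2292 CPM in OPC (1893 to 2751) and 1228 CPM in microglia. The whole list was thus lower in OPC than in microglia in each hippocampal library, and higher in the cortical sum. Trf, on this list, was at 1051, 959 and 1000 CPM in hippocampal microglia by replicate and at 10.5, 8.18 and 13.8 CPM in OPC. In replicates 2 and 3 this gap exceeded that between the sums, so the order there rested on Trf. In cortical microglia Trf was at 729 CPM. Cholesterol and lipid synthesis genes were higher in 4 of 29 cases and lower in 9 (median -0.52); 5 reached 50 CPM in OPC alone and 7 in mature cells alone. Scd2, a fatty acid desaturase, was at 457 against 2429 CPM and Hmgcs1, an enzyme of the mevalonate pathway, at 251 against 857 CPM. Fabp7, the fatty acid binding protein of radial glia and OPC, was higher, at 1334, 1383 and 1222 CPM against 31.1 CPM.

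Set beside 28 committed precursors of the same libraries (Pdgfra at 0, with at least 2 of Bmp4, Gpr17, Enpp6 and Neu4), 697 of 4703 genes (14.8%) were at least 2-fold higher in OPC and 326 (6.93%) lower, again as a description. OPC identity genes were higher in 18 of 26 cases, 10 of which reached 50 CPM in OPC alone, and lower in 1, Lims2. Cspg5 showed the widest gap among the abundant ones, 3134 against 61.8 CPM (log2 ratio 5.66), whereas Vcan (797 and 821 CPM) and Gpr37l1 (759 and 824 CPM) were at like levels in both. Receptors and channels were higher in 13 of 21 cases and lower in 0 (12 of the 21 reached 50 CPM in OPC alone), Kcnd2 among them at 161 against 2.57 CPM, while Gria2 held 911 CPM in committed precursors. Committed precursor genes, 4 of which defined that class, were higher in 0 of 20 cases and lower in 15. Fyn, a kinase of myelination, was at 766 against 3737 CPM and Bcas1 at 630 against 3012 CPM. In committed cells of replicate 1, pericyte marker genes summed to 1065 CPM, and their part in these ratios was not tested.

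The levels of committed precursor genes in hippocampal OPC were carried by few cells. Bmp4, a bone morphogenetic protein, was at 0, 166 and 454 CPM in replicates 1, 2 and 3, and Enpp6 at 0, 24.5 and 148 CPM. Both were lowest in replicate 1 and highest in replicate 3. Chosen after their values were seen, 4 members with at least 5 UMIs each of Bmp4 and Enpp6 (0, 1 and 3 by replicate) held 172 of 193 Bmp4 UMIs (89.1%), all 52 Enpp6 UMIs and 243 of 600 Gpr17 UMIs (40.5%). They were deep, with 19557 to 26512 UMIs, and each had 1 Pdgfra UMI, no Cspg4 and no Ccnd1. They held 3 of 2358 Cspg5 UMIs, but 400 of 576 Fyn UMIs (69.4%), 303 of 474 Bcas1 UMIs (63.9%) and 1822 of 3866 UMIs of the whole committed precursor list (47.1%). In the other 69 OPC, Cspg4 was found in 65 and Ccnd1 in 66. Gpr17, by contrast, had a UMI in 63 of those 69.

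**Figure D4:**
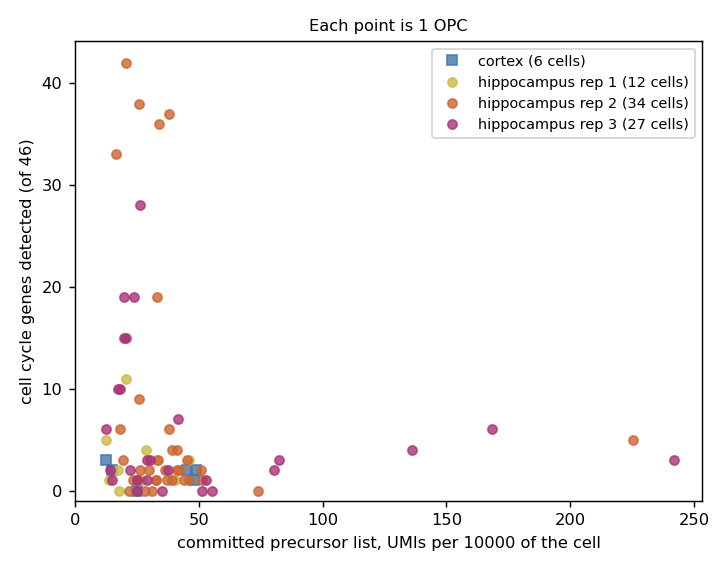
Committed precursor list, in UMIs per 10000 of the cell (x axis), against the number of cell cycle genes detected of 46 (y axis); each point is 1 OPC, coloured by library, with the 6 cortical cells as squares. Cells with 10 or more cell cycle genes lie at low values on the x axis, and the cells at the far right have no more than 6 cell cycle genes.

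Of 46 cell cycle genes, 20 reached 50 CPM, 19 of them in OPC alone, so their median log2 ratio of 5.29 over mature cells follows in part from that minimum. The summed level of the 46 genes was 483, 3335 and 2716 CPM in replicates 1, 2 and 3 (2735 CPM pooled), lowest in the replicate with the fewest OPC. Top2a, which untangles DNA in dividing cells, or Mki67, a marker of proliferation, had a UMI in 10 of 73 hippocampal OPC (13.7%, exact interval 6.77 to 23.8), which were 0 of 12, 6 of 34 and 4 of 27 by replicate, and in 0 of 6 cortical OPC. After thinning to 2000 UMIs the share was 8 of 70 (11.4%, 5.07 to 21.3), against 0.858% of mature cells (9 of 1049), 0.0933% of astrocytes (1 of 1072) and 0.347% of microglia. Without replicate 2 it was 2 of 37. Mature cells before thinning had a share of 5.86%, at a median of 21016 UMIs. Of the 4 OPC of replicate 3 with either gene, 1 cell of 1142 UMIs had 3 of the 28 identity genes and no Cspg4. It was 1 of 2 hippocampal OPC with at most 10 identity genes, and is also among the 14 cells below.

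The cell cycle UMIs were concentrated as well. Chosen after their values were seen, 14 OPC with at least 10 of the 46 genes (1, 6 and 7 by replicate) held 92.0% of the list's UMIs. Of these, 6 cells with 28 to 42 genes (0, 5 and 1 by replicate) held 1600 of 2058 UMIs (77.7%). All 6 had Cspg4 (2 to 13 UMIs), 10 to 58 Pdgfra UMIs, 23 to 26 identity genes, and no Bmp4 or Enpp6. Without them the list summed to 699 CPM. Ccnd1 (cyclin D1), in contrast, was spread over the cells, at 956, 990 and 936 CPM in replicates 1, 2 and 3, with a UMI in 66 of 73 OPC. It was at 2.20 CPM in mature cells, 28.3 CPM in committed precursors, 4.86 CPM in astrocytes and 132 CPM in microglia. The 3 hippocampal replicates differed little in it, and lay far above those 4 classes.

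Other transcripts varied between OPC as well. The Fano factor was the variance over the mean of counts thinned to 2000 UMIs, within a library and averaged over the 3 hippocampal libraries. By it, the most variable genes included Malat1 (58.2), Cd9 (5.86), Actb (5.13) and Apoe (3.86), against a median of 1.11. Cd9 stood at 1.39, 6.80 and 9.38 in replicates 1, 2 and 3. Malat1 had a thinned UMI in 67 of 70 cells, and 1 OPC of 2762 UMIs had none before thinning. The part of RNA quality in this was not tested. Cst3, a cystatin, stood at 9.58, but at 2.17 without the called doublet. Fos, an immediate early gene, stood at 1.25, 3.73 and 11.5 in replicates 1, 2 and 3, and 1 cell held 14 of its 30 thinned UMIs. Mki67 had no thinned UMI in replicate 1 and stood at 5.16 and 4.27 in replicates 2 and 3. Immediate early and stress genes ran from 6.33 to 265 UMIs per 10000 over hippocampal OPC, with a median of 39.3. Against mature cells, 8 of 15 such genes were higher and 2 lower (median 1.00), and 7 reached 50 CPM in OPC alone. Of the other 8, 1 was higher and 2 were lower (median -0.06). The whole list summed to 4312 CPM in hippocampal OPC and to 5455 CPM in mature cells. Fos was at 153 CPM in OPC, 17.9 CPM in mature cells and 987 CPM in microglia. Of 5 immune genes compared, 3 were higher, 2 of which reached 50 CPM in OPC alone, and 1, Cd81, was lower; Cd9, a tetraspanin, was at 1733, 2402 and 3860 CPM in replicates 1, 2 and 3 and at 9827 CPM in committed precursors.

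Marker genes of other cell types were summed in hippocampal OPC, leaving out those the rule used. Fibroblast markers came to 19.9 CPM (4 of 10 at 0), pericyte markers to 17.3 CPM (3 of 7 at 0), endothelial markers to 59.8 CPM (2 of 8 at 0) and erythroid markers to 14.6 CPM (1 of 5 at 0). Microglia markers summed to 257 CPM with 0 of 10 at 0, and to 165 CPM without 4 members that had at least 5 of them. Choroid plexus and ependymal markers summed to 472 CPM (5 of 10 at 0), led by Enpp2, which mature oligodendrocytes also express. Astrocyte markers summed to 1269 CPM (1260, 1718 and 706 by replicate, 1 of 11 at 0), led by Slc1a2, a glutamate transporter, at 416 CPM, and to 1011 CPM without the called doublet, which had at least 8 of them. Neuron markers summed to 1108 CPM (3 of 12 at 0), led by the noncoding RNA Meg3 at 614 CPM. Next came Sox11, which is also counted above among the transcription factors higher in OPC. Snap25 was at 101 and Dcx at 95.7 CPM. The part of other cells' RNA in these values was not tested.

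Against 1180 astrocytes, 1667 of 4847 genes (34.4%) were at least 2-fold higher in OPC and 629 (13%) lower, or 763 and 997 with ratios centred on the median gene. Identity genes were higher in 21 of 26 cases, of which 17 reached 50 CPM in OPC alone, and lower in 1, Gpr37l1 (759 against 2111 CPM). Gria2 (1236 and 1163 CPM), Hes5 (290 and 289 CPM) and Ncan (259 and 263 CPM) were at like levels in both classes, whereas Gria3 was at 271 against 1.54 CPM and Dscam, an adhesion molecule, at 206 against 0.331 CPM. Committed precursor genes were higher in 17 of 18 cases, of which 14 reached 50 CPM in OPC alone. Receptors and channels were higher in 15 of 28 cases and lower in 8, and the 12 that reached 50 CPM in astrocytes held 0 of the higher and all 8 of the lower.

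The 6 cortical OPC had 7144 and 7688 UMIs in replicate 2 and 14340, 9194, 4713 and 7090 UMIs in replicate 3. Each had Cspg4 (9, 6, 2, 5, 2 and 3 UMIs in that order), Ptprz1 (42, 29, 18, 57, 33 and 28 UMIs), Gria2 (12, 5, 13, 12, 15 and 13 UMIs) and Ccnd1 (8, 7, 1, 11, 3 and 3 UMIs), and 22 or 23 of the 28 identity genes. None had a UMI of Enpp6, Top2a or Mki67. The cell of 14340 UMIs, called a doublet, also held 145 UMIs of 5 of 7 pericyte markers, 97 of them Rgs5, while the other 5 cells held 0. Results between the regions are therefore given with and without it.

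Between hippocampal and cortical OPC, 599 of 5423 genes (11%) were at least 2-fold higher in hippocampus and 998 (18.4%) lower, or 584 and 1335 of 5798 without the doublet. In the cortical sum 50 CPM is about 2.50 UMIs, and 52.5% of the genes compared had fewer than 5 cortical UMIs. At a minimum of 400 CPM, added after the data were seen, 384 genes were left, 20 (5.21%) higher and 24 (6.25%) lower, and without the doublet 34 and 28 of 396. Cortical replicate 1 had no OPC, so no gene could meet the rule for naming genes, and those below were chosen after their values were seen. At 400 CPM, OPC identity genes had a median log2 ratio of -0.40 over 16 genes, 0 of them past 2-fold, and without the doublet -0.63 over 18, of which 3 (Vcan, Ednrb and Cdo1) were past 2-fold, all lower in hippocampus. At 50 CPM, 2 of 26 were higher in hippocampus and 0 lower, with a median of -0.40 against -0.12 for all genes, and without the doublet 1 of 27 was higher and 4 were lower, with a median of -0.61 against -0.31. Over the shared identifiers the list summed to 18969 CPM in hippocampal OPC and to 22772 CPM in cortical OPC, or 28157 CPM without the doublet.

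Several genes differed between the regions in other cells as well. Gm42418, a transcript that overlaps ribosomal RNA sequence, was at 2092 CPM in hippocampal and 13421 CPM in cortical OPC without the doublet (11166 CPM with it). In microglia it was at 2217 and 9952 CPM. Rpl13a was at 896 and 168 CPM in OPC (140 CPM in cortex with the doublet) and at 1260 and 216 CPM in microglia. Of the 34 genes higher and 28 lower in hippocampal OPC without the doublet, 5 and 2 were past 2-fold in the same direction in microglia, as were 5 and 2 of the 20 and 24 with it. In astrocytes these numbers were 5 and 4 without the doublet, and 5 and 6 with it. Among the 34 were 19 ribosomal protein genes, which were within 2-fold in microglia apart from Rpl13a, but with the doublet 6 of the 20 were ribosomal. Also among the 34 were the committed precursor genes Fyn (767 against 196 CPM, or 160 with it), Bcas1 (631 against 252 CPM, or 180 with it) and Sirt2 (748 against 280 CPM, or 240 with it). The 4 hippocampal members high in Bmp4 and Enpp6 held much of these UMIs. Without those 4, Fyn was at 269, Bcas1 at 261 and Sirt2 at 461 CPM, within 2-fold of cortex with and without the doublet. For Sirt2 the log2 ratio was then 0.94 (0.12 to 1.91) with the doublet and 0.72 (-0.18 to 1.80) without it. Without the 4, the whole list summed to 3120 CPM in hippocampus (5145 CPM with them), against 3747 CPM in cortex without the doublet and 3036 CPM with it. Among the 28 were Vcan (798 against 1790 CPM, or 1338 with it), Ednrb (456 against 979 CPM, or 819 with it) and Hes5 (290 against 699 CPM, or 619 with it). For Vcan the log2 ratio was -1.16 (-1.54 to -0.77) without the doublet and -0.75 with it, and for Ednrb it was -1.10 and -0.84, so with the doublet neither was past 2-fold. Of the genes named here, Rpl13a, Fyn, Bcas1 and Sirt2 reached 400 CPM in hippocampus alone and Hes5 and Cdo1 in cortex alone, so the direction of each followed from that minimum.

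**Figure D5:**
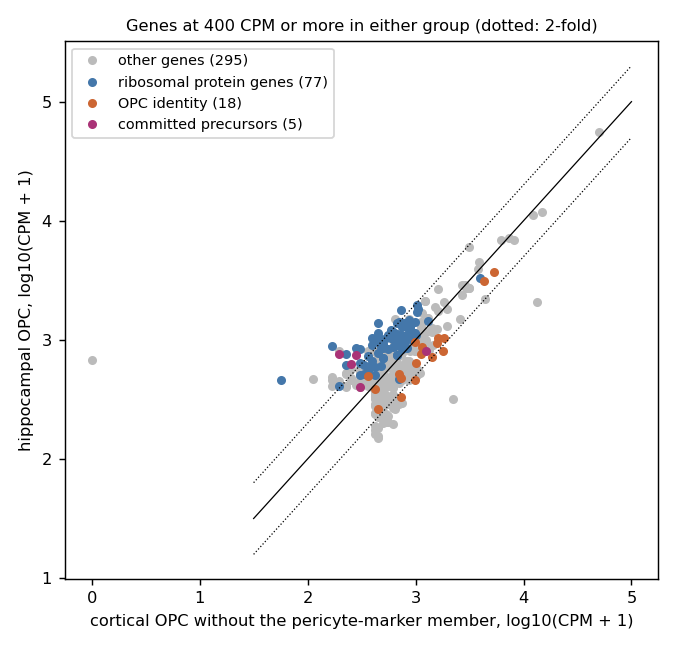
Level in hippocampal OPC (y axis) against the 5 cortical OPC without the called doublet (x axis), both as log10(CPM + 1), for the genes at 400 CPM or more in either group; the solid line marks equal levels and dotted lines 2-fold. Ribosomal protein genes (blue) lie mostly above the line, and OPC identity genes (orange) mostly on or below it.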

How the data were processed

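Single cells were captured on the 10x Genomics platform and the authors deposited 1 matrix of raw UMI counts per library. Reads were aligned to mm10 with Cell Ranger, version 5.0.1 per the submitters' processing notes, whereas the matrix headers name 3.0.1 (cortex) and 3.1.0 (hippocampus), and the gene annotations differ between preparations (31053 and 27998 identifiers); the regions were compared over 27514 shared ones. Deposited counts were read with scanpy 1.11.5 and summed per cell class in Python 3.11.15 (numpy 2.4.6, scipy 1.17.1, pandas 2.3.3). A gene was compared at 50 CPM or more in either class and counted when 2-fold or more apart; a count of 0 was taken as a floor of 3 counts over the group. Scrublet was run per library at 0.8% doublets per 1000 barcodes; called cells were kept, and their removal is among the alternatives. Genes named were the 12 highest and 12 lowest against mature cells with all 3 replicates on 1 side, the 12 highest over 4 other classes, the 12 of highest Fano factor and, in every comparison, members of the gene lists; others were chosen after their values were seen. With 1 biological sample per preparation, no p-values were computed, and SDs over replicates are technical. Count ratios and thinning were tested on simulated data. The members, the 23 gene lists and the tests were chosen with earlier results of these data known. The 9-week cortex was not analysed here.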

Additional observations from a re-analysis of the deposited data

Results flagged for a closer look

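Outside the cells called OPC, 44 of 27530 kept barcodes (0.160%) had UMIs of Cspg4 and Olig1 but none of Pdgfra. They are given as a signal outside the cells compared, and no control level was measured for it. There were 14 in cortex and 30 in hippocampus. They held 228 CPM of Cspg4 and 1308 CPM of Ptprz1, at a median of 8750.5 UMIs. The part of other cells' RNA in them was not tested.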

How the results depend on the processing

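No paired analysis was possible because each preparation is 1 pooled sample and no test was run. The OPC shares and the share with Top2a or Mki67 moved by less than the replicate SD or counting interval under every alternative. In cortex that SD was about the size of the OPC share itself. No log2 ratio of the 24 named genes changed sign. Those genes were picked from these data for extreme ratios, so their sign could hardly change and this is not support. The list medians against mature cells whose alternatives are given below also kept their sign. Over genes that reached 50 CPM in mature cells, some medians turned negative. They were -0.60 for receptors and channels, -1.86 for secreted factors, -0.57 for growth factor receptors and -0.06 for stress genes. The other list medians given above kept their sign. The median over all genes between the regions went from -0.12 to 0.08 at a 400 CPM minimum. The committed precursor list, higher in hippocampus than in cortex without the doublet (5145 against 3747 CPM), was lower without the 4 members high in Bmp4 and Enpp6 (3120 CPM). Centring turned which count was the larger against mature cells and astrocytes. Of 408 values for the 24 named genes, 354 moved by less than their replicate spread, as did 213 of 264 others. Counts of genes moved most. For OPC against mature cells (1569 higher, 658 lower), centring gave 951 and 1018, a 10 CPM minimum 3990 and 999, no minimum 9689 and 1151, and 1.5-fold 2354 higher. For committed precursors (697 and 326) these were 2305 and 702 at 10 CPM, 2576 and 2240 with no minimum, and 1137 and 741 at 1.5-fold. For astrocytes (1667 and 629), centring gave 763 and 997, 10 CPM 3590 and 1525, no minimum 8293 and 1943, and 1.5-fold 2589 higher. For the regions (599 and 998), genes lower in hippocampus numbered 3675 at 10 CPM and 6653 with no minimum, 1.5-fold gave 1122 and 1635, and 400 CPM, added after seeing the data, 20 and 24. Leaving out replicates in turn gave 260 to 714 genes higher and 950 to 2928 lower; without cortical replicate 3, which left 2 cells, they were 260 and 2928. Median log2 ratios against mature cells also moved. Centring gave 6.15 for identity genes, 4.58 for receptors and channels, 3.54 for proteoglycans and -5.99 for myelin genes. Adding 5 CPM gave 4.97, 3.62, 3.60 and -4.81, and 3.42 for cell cycle genes. Requiring all 3 mature genes gave 7.65, 5.70 and 5.81 for the first 3 lists. The proteoglycan median (4.10) was 5.11 without doublets, 5.64 with none of the 6 other-type genes, 4.68 at a 10% mitochondrial limit, 5.19 with at least 2 Pdgfra UMIs, 3.44 with mitochondrial, ribosomal and haemoglobin genes out of the totals, 4.79 as a mean over libraries, 3.41 at 10 CPM and with no minimum, 4.77 without the 4 members high in Bmp4 and Enpp6 (added after seeing the data), and 4.53 to 5.03 without each replicate. The causes were not tested. With 50061 cortical UMIs, differences below about 400 CPM rest on few molecules.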
